A study of Mus musculus with 12 samples.

Results

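The genes described here are 46 genes of the lysosome, listed by name: acid hydrolases, their helper proteins, proteins of the lysosomal membrane and subunits of the proton pump that acidifies it. A gene was taken from probe sets paired with a single symbol in the platform annotation, keeping the probe set with the highest mean over all 12 arrays. By that rule 45 of the 46 were measured, each by 1 probe set, among 19938 genes in all, and Atp6v0c was dropped. The 45 were grouped by role into 13 proteases, 8 glycosidases, 4 lipid hydrolases, 5 activators and lipid carriers, 7 membrane proteins and 8 proton pump genes.

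Expression was measured on Affymetrix Mouse Gene 1.0 arrays in bone marrow cells from the tibia and femur of C57B/6 mice, all kept in culture with GM-CSF, a growth factor for myeloid cells, at 20 ng/ml for 6 days. The 4 groups of 3 arrays were GM-DC (dendritic cells) with lipopolysaccharide (LPS), unstimulated GM-DC, GM-MF (macrophages) with LPS, and unstimulated GM-MF. LPS, a bacterial ligand of Toll-like receptor 4, was given at 10 ng/ml for 4 hours. How GM-DC and GM-MF were separated, the age of the mice and whether arrays of a group came from separate mice or cultures are not given in the labels, so the p-values cover no more than the spread among these arrays, which could be technical.

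Lysosomes break down proteins, sugar chains and lipids with hydrolases that work at acid pH. The vacuolar ATPase supplies the acid: its V1 sector hydrolyses ATP and its V0 sector carries protons across the membrane. Macrophages are known for strong lysosomal degradation of what they engulf, whereas dendritic cells are known for slower proteolysis, which leaves peptides for presentation to T cells. Many lysosomal genes carry an E-box, CACGTG, near their start site that is bound by transcription factors of the TFEB, TFE3, MITF and TFEC family.

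The motif CACGTG, which reads the same on both strands, was searched in RefSeq promoter windows of assembly GRCm38.p6, which run from 250 bases before to 50 bases after the start site. Windows were found for 38 of the 45 genes, and Ctsb, Ctsh, Asah1, Npc1, Atp6v0d2, Atp6v1b2 and Atp6v1h had no entry. CACGTG stood in the windows of 13 of the 38 (34.2%), against 8.09% of 27025 genes with a window and 9.50% of the 15614 of those on the array. The 13 were Ctsa, Ctsd, Ctsf, Ctsl, Lgmn, Gaa, Gla, Glb1, Naglu, Lamp1, Mcoln1, Atp6v0d1 and Atp6v1a. The windows of 5 of the genes are printed here up to the start site, 5′ to 3′, with CACGTG in capitals: the window with the most copies (Lamp1), a glycosidase with 2 copies (Gla), and 3 genes with a single copy or none whose expression is described at length (Atp6v1a, Atp6v0a1 and Ctsk). They span chr8:13158911-13159160 on the plus strand (Lamp1), chrX:134601006-134601255 on the minus strand (Gla), chr16:44139260-44139509 on the minus strand (Atp6v1a), chr11:101010148-101010397 on the plus strand (Atp6v0a1) and chr3:95498960-95499209 on the plus strand (Ctsk).
Lamp1: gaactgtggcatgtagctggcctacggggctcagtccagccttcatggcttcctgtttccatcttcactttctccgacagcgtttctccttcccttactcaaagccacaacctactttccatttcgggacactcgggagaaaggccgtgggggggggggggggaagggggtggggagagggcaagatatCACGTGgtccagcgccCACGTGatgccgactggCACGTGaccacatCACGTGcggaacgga
Gla: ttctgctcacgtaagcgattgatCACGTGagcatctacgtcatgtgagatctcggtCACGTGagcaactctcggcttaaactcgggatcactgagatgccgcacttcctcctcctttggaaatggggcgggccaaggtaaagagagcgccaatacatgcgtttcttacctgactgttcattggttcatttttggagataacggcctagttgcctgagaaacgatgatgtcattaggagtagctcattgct
Atp6v1a: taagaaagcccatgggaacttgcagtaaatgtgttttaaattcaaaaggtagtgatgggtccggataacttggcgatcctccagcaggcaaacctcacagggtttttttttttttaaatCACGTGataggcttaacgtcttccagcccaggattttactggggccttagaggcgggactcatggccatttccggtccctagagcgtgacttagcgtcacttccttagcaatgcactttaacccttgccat
Atp6v0a1: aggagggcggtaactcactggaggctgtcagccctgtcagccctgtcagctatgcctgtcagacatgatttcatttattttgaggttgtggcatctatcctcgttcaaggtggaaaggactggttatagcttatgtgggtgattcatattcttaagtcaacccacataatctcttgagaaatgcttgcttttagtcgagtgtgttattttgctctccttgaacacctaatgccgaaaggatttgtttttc
Ctsk: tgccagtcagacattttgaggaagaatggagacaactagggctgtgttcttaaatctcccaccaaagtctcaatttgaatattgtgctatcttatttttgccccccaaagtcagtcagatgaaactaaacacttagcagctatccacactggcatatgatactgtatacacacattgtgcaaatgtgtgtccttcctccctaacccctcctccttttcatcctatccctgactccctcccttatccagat
In Lamp1 the 4 copies began 61, 45, 28 and 15 bases before the start site, in Gla the 2 copies began 227 and 194 bases before it, and in Atp6v1a the copy began 131 bases before it. The Atp6v0a1 and Ctsk stretches hold no such letters.

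Longer forms that contain CACGTG, and so overlap it, were searched on both strands. Ctsa, Lgmn and Psap had more than a single window, and a gene was counted when any of its windows held the motif. GTCACGTG was present for 9 of 38 genes (23.7%, against 3.46% of genes on the array), TCACGTGA for 6 (15.8%, against 1.52%) and the full CLEAR palindrome for 0 (against 0.525%). By role, CACGTG was present for 5 of 11 protease genes, 4 of 8 glycosidase genes, 2 of 7 membrane protein genes and 2 of 5 proton pump genes. It was present for 0 of 3 lipid hydrolase genes and 0 of 4 genes of activators and carriers. Of the other motifs searched on both strands, GGGCGG was present for 26 genes (68.4%, against 52.9% of genes on the array) and the AP-1 motif TGACTCA for 5 (13.2%, against 5.41%). An interferon-stimulated response element was present for 4 (10.5%, against 3.89%) and a PU.1 motif for 0 (against 0.519%). A match describes letters in the window and is not evidence of binding.

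Within groups, array correlations over all genes were 0.993 to 0.996, and the SD over 3 arrays had medians of 0.121 to 0.138 log2. All 45 lysosomal genes had a mean above the median of all genes, with means of 5.76 to 12.13 log2 (median 9.39, against 4.86 for all genes). Only Ctsk lay under the array median, and only in the GM-DC groups. Summed linear signal of 8 macrophage markers (Csf1r, Mertk, Fcgr1 and others) was 485 to 608 in GM-DC with LPS and 428 to 485 in unstimulated GM-DC, against 9662 to 11512 in GM-MF with LPS and 8952 to 10854 in unstimulated GM-MF. The 8 dendritic cell markers (Zbtb46, Ccr7, Fscn1 and others) summed to 11937 to 12527 in GM-DC with LPS and 10353 to 11885 in unstimulated GM-DC, against 852 to 1625 in GM-MF with LPS and 306 to 524 in unstimulated GM-MF. Both lists ran with the labels, although all 8 macrophage markers lay above the array median in GM-DC as well and the dendritic cell marker Kmo lay under it in all 4 groups. Neutrophil markers (9 measured) summed to 1614 to 1826 and 1771 to 1952 in GM-DC with and without LPS, against 3206 to 3550 and 2447 to 2964 in GM-MF with and without LPS; Ltf, Cxcr2 and Ly6g lay under the array median in all 4 groups. Mast cell markers (6) summed to 94.03 to 138 and 162 to 257 in GM-DC with and without LPS, against 76.2 to 81.4 and 55.1 to 61.8 in GM-MF with and without LPS, and the lists of B cell (4), T and NK cell (6), erythroid (3) and stromal (5) markers summed to 53.1 to 130 on every array. The part of such other cells in the results below was not tested, and in these bulk samples a smaller share of a cell type and less RNA per cell cannot be told apart.

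Certain arrays held lower values of most of these genes. Replicate 3 was the lowest of its group for 35 of 45 in GM-DC with LPS and for 33 of 45 in unstimulated GM-DC, against 39.7% and 36.5% of all genes, with median deviations from the group mean of -0.158 and -0.132 log2. Replicate 2 was the lowest for 35 of 45 in GM-MF with LPS and for 31 of 45 in unstimulated GM-MF, against 31.4% and 33.1% of all genes, with median deviations of -0.0911 and -0.0501 log2. Counts are therefore also given without these arrays.

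**Figure D1:**
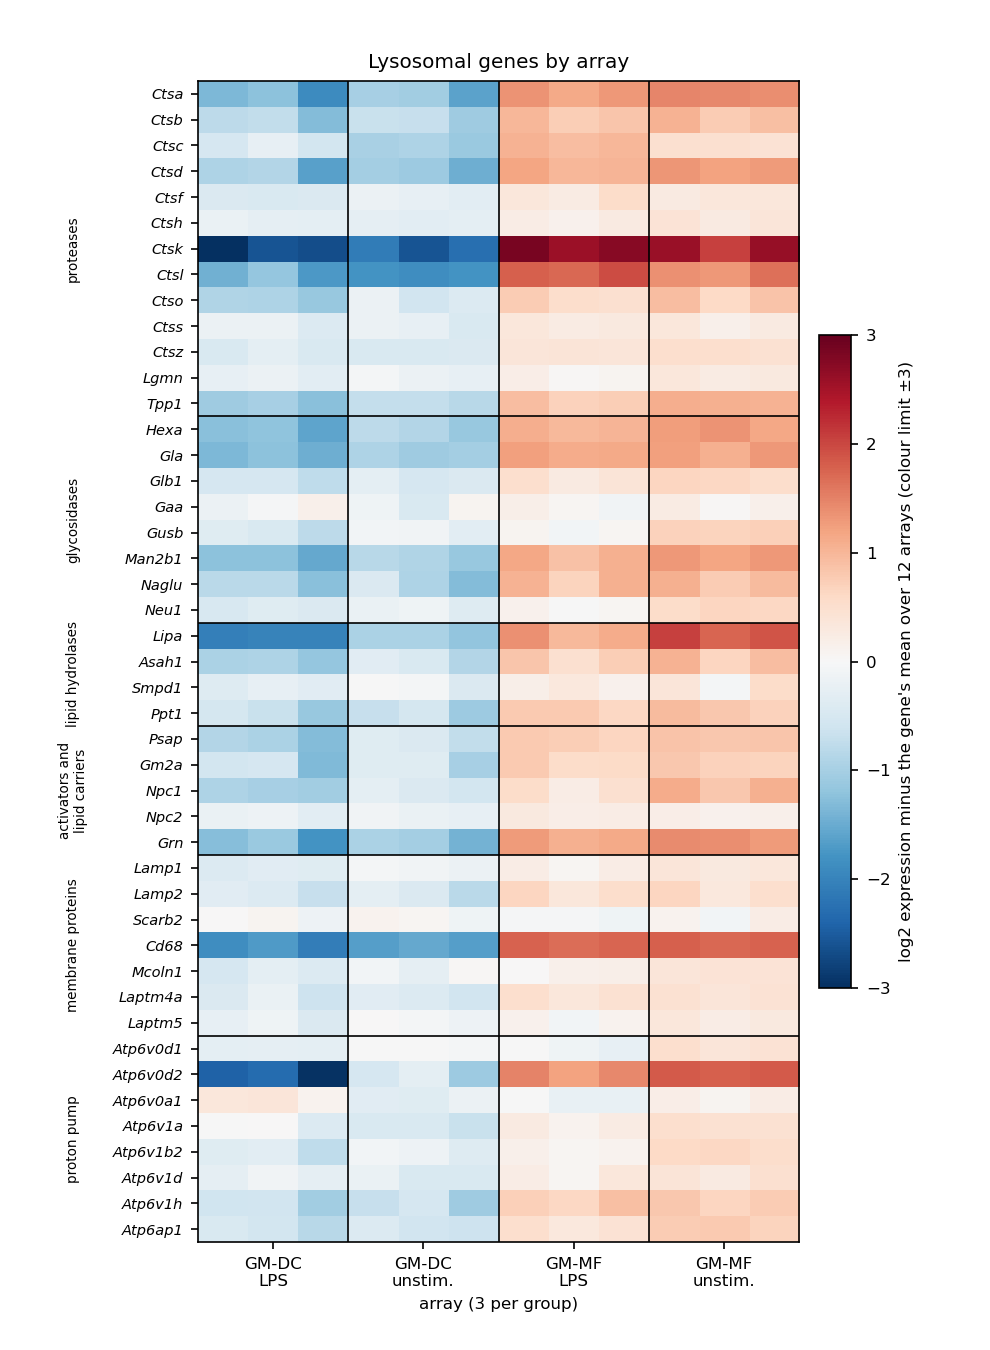
Each row is a lysosomal gene and each column an array, coloured by log2 expression minus that gene's mean over the 12 arrays and grouped by role. For 37 of the 45 genes all 6 GM-DC arrays on the left lie below all 6 GM-MF arrays, against 11% of all genes. The other 8, in which arrays of the cell types overlap, are Gaa, Gusb, Smpd1, Scarb2, Mcoln1, Laptm5, Atp6v0d1 and Atp6v0a1.

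The first comparison asks how GM-DC and GM-MF differ before stimulation. The lysosomal genes were lower in GM-DC across every role. Of 45, 43 were lower, 25 of them by at least 2-fold, and 0 were higher; Gaa and Scarb2 did not pass. A gene was called at a Benjamini-Hochberg adjusted p under 0.05 in limma over all 19938 genes. In that comparison 34.2% of all genes were called, 16.2% lower (7.02% by at least 2-fold) and 18% higher. Of the 9969 genes in the brighter part, those whose mean exceeded the all-gene median, 27.7% were called lower and 30.6% higher. The median difference of the 45 was -1.18 log2 (range -4.72 to -0.06), beside -0.01 over all genes. The 3 arrays of unstimulated GM-DC lay below the 3 of unstimulated GM-MF for 42 of 45 genes, against 21.4% of all genes, and above them for 0, against 23%. Without replicate 3 of GM-DC in both treatments the count stayed at 43 lower and 0 higher, with a median of -1.09, and without replicate 2 of GM-MF in both treatments at 43 lower and 0 higher, with a median of -1.25.

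With LPS the same comparison gave 41 lower, 23 of them by at least 2-fold, and 1 higher, against 15.4% of all genes lower (6.5% by at least 2-fold) and 20.9% higher, 36.3% in all. Among the brighter genes these shares were 25.1% and 36%. The median was -1.03 log2 (range -5.54 to 0.42), beside 0.00 over all genes. Arrays did not overlap for 42 that were lower, against 19.9% of all genes, and for 1 that was higher, against 25%. Gaa, Scarb2 and Atp6v0d1 did not pass, and Atp6v0a1 was the gene that was higher in GM-DC. Called lower both without and with LPS, comparisons that share no array, were 41 of 45, against 11.7% of all genes. Without replicate 3 of GM-DC in both treatments 39 were lower and 1 higher, and without replicate 2 of GM-MF in both treatments 41 were lower and 1 higher.

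**Figure D2:**
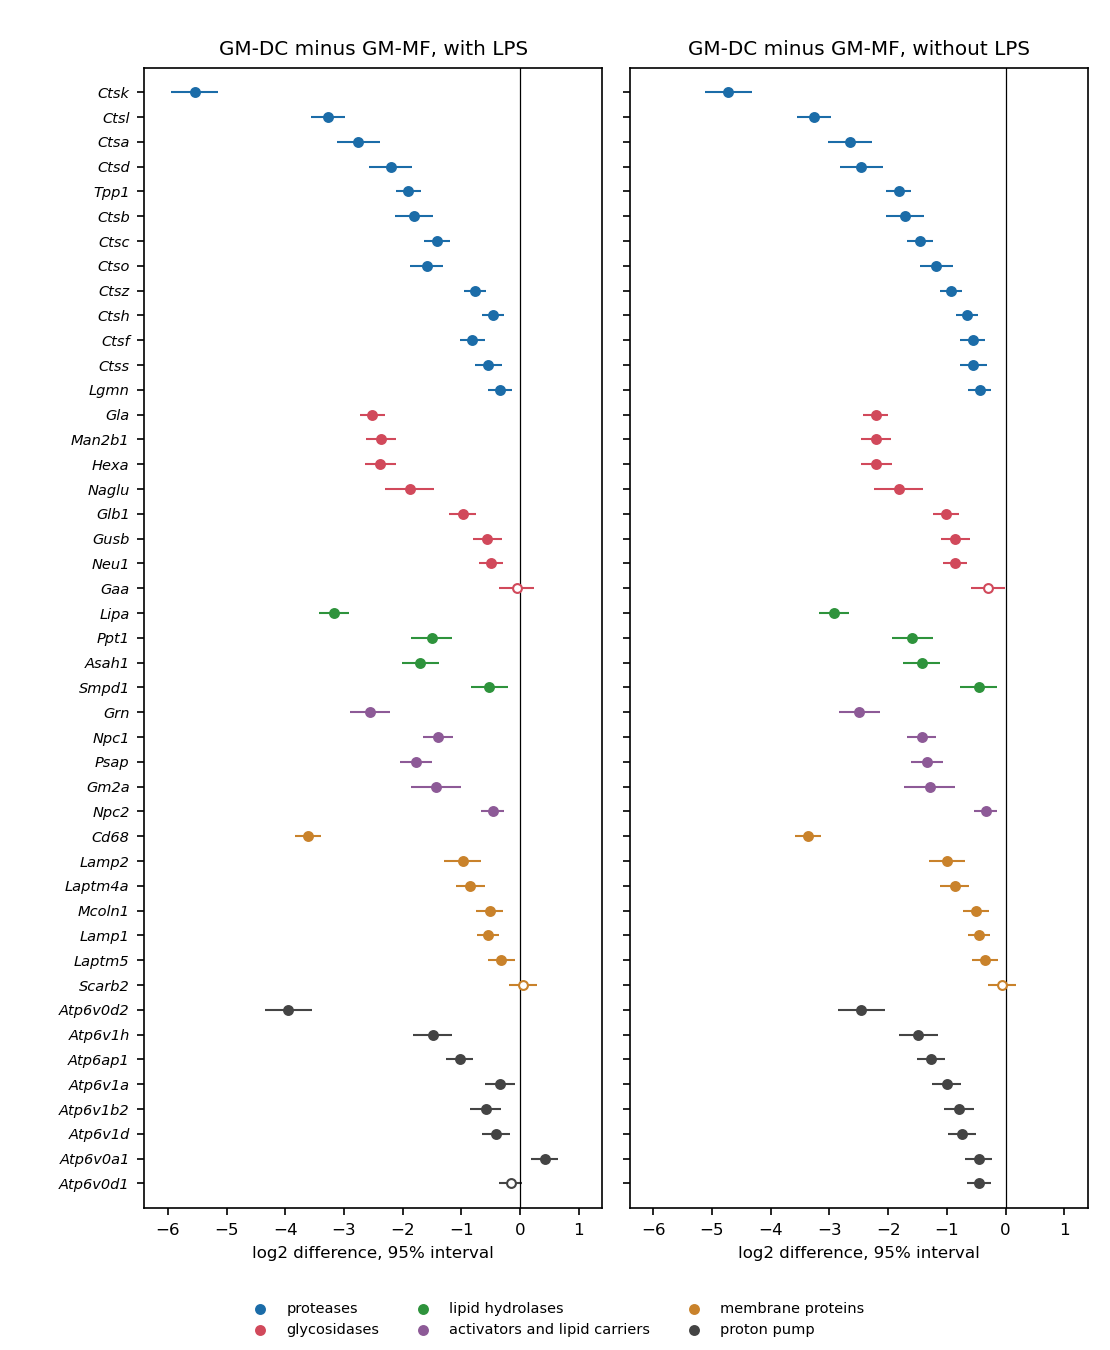
Differences of GM-DC minus GM-MF on the log2 scale with 95% intervals, with LPS on the left and without LPS on the right, coloured by role. Filled points passed an adjusted p under 0.05. All points without LPS lie left of 0, from -4.72 for Ctsk to -0.06 for Scarb2, and with LPS Atp6v0a1 stands right of 0 at 0.42.

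All 13 proteases were lower in GM-DC in both comparisons, 8 of them by at least 2-fold in each, with medians of -1.59 with LPS and -1.46 log2 without. Ctsk encodes cathepsin K, the collagen-degrading protease best known from osteoclasts. Its values with LPS were 3.40, 4.03 and 3.94 log2 in GM-DC, against 9.46, 9.18 and 9.35 in GM-MF. Without LPS, Ctsk stood at 4.53, 4.03 and 4.35 log2 in GM-DC, against 9.20, 8.66 and 9.22 in GM-MF. The groups were far apart, and the GM-DC values lay near or under the array medians of 4.41 to 4.54, so the folds are ratios of signals whose lower one is not shown to lie above background. Ctsk was lower in GM-DC by -5.54 ± 0.19 log2 (46.5-fold, adjusted p = 8.05e-12) with LPS and by -4.72 ± 0.19 (26.4-fold, adjusted p = 2.91e-11) without, where ± gives the standard error of the limma fit. Its neighbour on chromosome 3, Ctss, with 0 protein-coding genes between them in RefSeq, encodes cathepsin S of the MHC class II pathway and differed by -0.55 log2 in both comparisons.

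Osteoclast and giant cell markers were set beside Ctsk. Their summed linear signal over 9 genes was 1059 to 1075 in GM-DC with LPS and 1222 to 1231 in unstimulated GM-DC, against 1225 to 1393 in GM-MF with LPS and 1325 to 1574 in unstimulated GM-MF. Itgb3 and Oscar lay under the array median in all groups. Of the 9, 3 were called higher and 2 lower in GM-DC with LPS, against 20.9% and 15.4% of all genes. Without LPS 2 were higher and 3 lower, against 18% and 16.2%. The fusion protein gene Dcstamp was lower in GM-DC (-4.04 ± 0.15 log2 with LPS, -4.00 ± 0.15 without). Tnfrsf11a, the receptor RANK, was higher (2.38 ± 0.11 and 2.53 ± 0.11), and the largest difference of another marker reached 3.53 without LPS. Their part in the Ctsk difference was not tested.

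Ctsl, encoding cathepsin L, stood with LPS at 8.20, 8.47 and 7.92 log2 in GM-DC, against 11.44, 11.37 and 11.60 in GM-MF. In unstimulated arrays it stood at 7.85, 7.77 and 7.84 log2 in GM-DC, against 11.01, 10.94 and 11.29 in GM-MF. The groups did not overlap, and Ctsl was lower in GM-DC by -3.27 ± 0.14 with LPS (9.67-fold) and by -3.26 ± 0.14 without (9.56-fold, adjusted p = 5.12e-11). The carboxypeptidase cathepsin A (Ctsa, -2.75 ± 0.17 with LPS and -2.65 ± 0.17 without) and the aspartic protease cathepsin D (Ctsd, -2.20 ± 0.17 and -2.45 ± 0.17) followed. Differences of 2-fold or more in both comparisons were also found for Tpp1 (-1.90 and -1.82), a tripeptidyl peptidase, Ctsb (-1.80 and -1.71), Ctsc (-1.42 and -1.46), which activates granule serine proteases, and Ctso (-1.59 and -1.18). Smaller called differences were seen for Ctsz (-0.76 and -0.94), Ctsf (-0.82 and -0.56), Ctsh (-0.46 and -0.65) and Lgmn (-0.34 and -0.44), the asparaginyl endopeptidase that processes cathepsins.

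Glycosidases remove sugars from glycoproteins, glycolipids and glycosaminoglycans, and 7 of 8 were lower in GM-DC in both comparisons. Medians were -1.43 log2 with LPS and -1.42 without. Differences of more than 4-fold in both comparisons were found for alpha-galactosidase A (Gla, -2.51 ± 0.10 with LPS and -2.21 ± 0.10 without), alpha-mannosidase (Man2b1, -2.37 ± 0.12 and -2.21 ± 0.12) and the alpha subunit of beta-hexosaminidase (Hexa, -2.38 ± 0.12 and -2.20 ± 0.12). Naglu, which acts on heparan sulfate, differed by -1.88 ± 0.19 and -1.82 ± 0.19, Glb1 by -0.98 and -1.01, beta-glucuronidase (Gusb) by -0.56 and -0.86, and the sialidase Neu1 by -0.49 and -0.86. Gaa, the acid alpha-glucosidase of glycogen, stood without LPS at 7.08, 6.77 and 7.30 log2 in GM-DC, against 7.45, 7.25 and 7.37 in GM-MF. These values overlapped, and the difference of -0.30 (95% interval -0.60 to -0.01, adjusted p = 0.11) did not pass, nor did that with LPS (-0.06, adjusted p = 0.8). Without replicate 3 of GM-DC in both treatments the unstimulated difference of Gaa was -0.43 and passed (adjusted p = 0.0226). It also passed after scaling by cyclic loess (-0.37, adjusted p = 0.0473).

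All 4 lipid hydrolases were lower in GM-DC in both comparisons, with medians of -1.60 log2 with LPS and -1.51 without. Lipa, the acid lipase that frees cholesterol from lipoprotein esters, stood with LPS at 7.20, 7.24 and 7.26 log2 in GM-DC, against 10.62, 10.23 and 10.37 in GM-MF. Without LPS its values were 8.29, 8.30 and 8.07 log2 in GM-DC, against 11.31, 10.99 and 11.15 in GM-MF. No arrays of the cell types overlapped, and Lipa was lower in GM-DC by -3.17 ± 0.12 (9.03-fold, adjusted p = 1.99e-11) with LPS and -2.93 ± 0.12 (7.62-fold, adjusted p = 4.21e-11) without. Acid ceramidase (Asah1) differed by -1.70 and -1.43, the thioesterase Ppt1 by -1.51 and -1.59, and acid sphingomyelinase (Smpd1) by -0.53 and -0.45. The unstimulated call of Smpd1 (adjusted p = 0.0255) was lost without replicate 3 of unstimulated GM-DC (0.133), without replicate 1 (0.083) or 3 (0.136) of unstimulated GM-MF.

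Activators hand lipids to the hydrolases or stabilise them, and the carriers Npc1 and Npc2 export cholesterol. All 5 genes of this class were lower in GM-DC in both comparisons. Progranulin (Grn), the precursor of granulins, differed by -2.56 ± 0.16 log2 with LPS and -2.49 ± 0.16 without. Prosaposin (Psap), the precursor of the saposins, differed by -1.77 and -1.34, the GM2 activator Gm2a by -1.43 and -1.30, and the cholesterol exporter Npc1 by -1.39 and -1.43. Npc2, the soluble partner of Npc1 in cholesterol export, differed less, by -0.47 ± 0.09 and -0.34 ± 0.09.

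Of 7 membrane proteins, 6 were lower in GM-DC in both comparisons, with medians of -0.55 log2 with LPS and -0.50 without, and Cd68 was the single one that reached 2-fold in both. Cd68 encodes a heavily glycosylated membrane protein used as a macrophage marker. With LPS it stood at 8.19, 8.33 and 7.96 log2 in GM-DC, against 11.80, 11.72 and 11.78 in GM-MF. Without LPS it stood at 8.38, 8.51 and 8.39 log2 in GM-DC, against 11.83, 11.75 and 11.81 in GM-MF. The groups were widely apart, by -3.61 ± 0.10 (12.2-fold, adjusted p = 1.89e-12) with LPS and -3.37 ± 0.10 (10.3-fold, adjusted p = 3.18e-12) without. The structural proteins Lamp2 (-0.98 and -0.998) and Lamp1 (-0.55 and -0.45), the calcium channel Mcoln1 (-0.52 and -0.50), Laptm4a (-0.85 and -0.86) and Laptm5 (-0.32 and -0.35) were lower by smaller amounts.

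Laptm5 lost its call with LPS (adjusted p = 0.0271) without replicate 1 (0.0558) or 3 (0.118) of GM-DC or replicate 1 (0.0958) or 3 (0.0824) of GM-MF, and its unstimulated call (0.0156) without replicate 3 of GM-DC (0.0658) or replicate 1 of GM-MF (0.0559). Scarb2, the receptor that carries beta-glucocerebrosidase to lysosomes, stood without LPS at 9.87, 9.83 and 9.63 log2 in GM-DC, against 9.86, 9.67 and 9.97 in GM-MF. The groups overlapped, with a difference of -0.06 (95% interval -0.29 to 0.18, adjusted p = 0.769) without LPS and 0.05 (adjusted p = 0.789) with it.

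**Figure D3:**
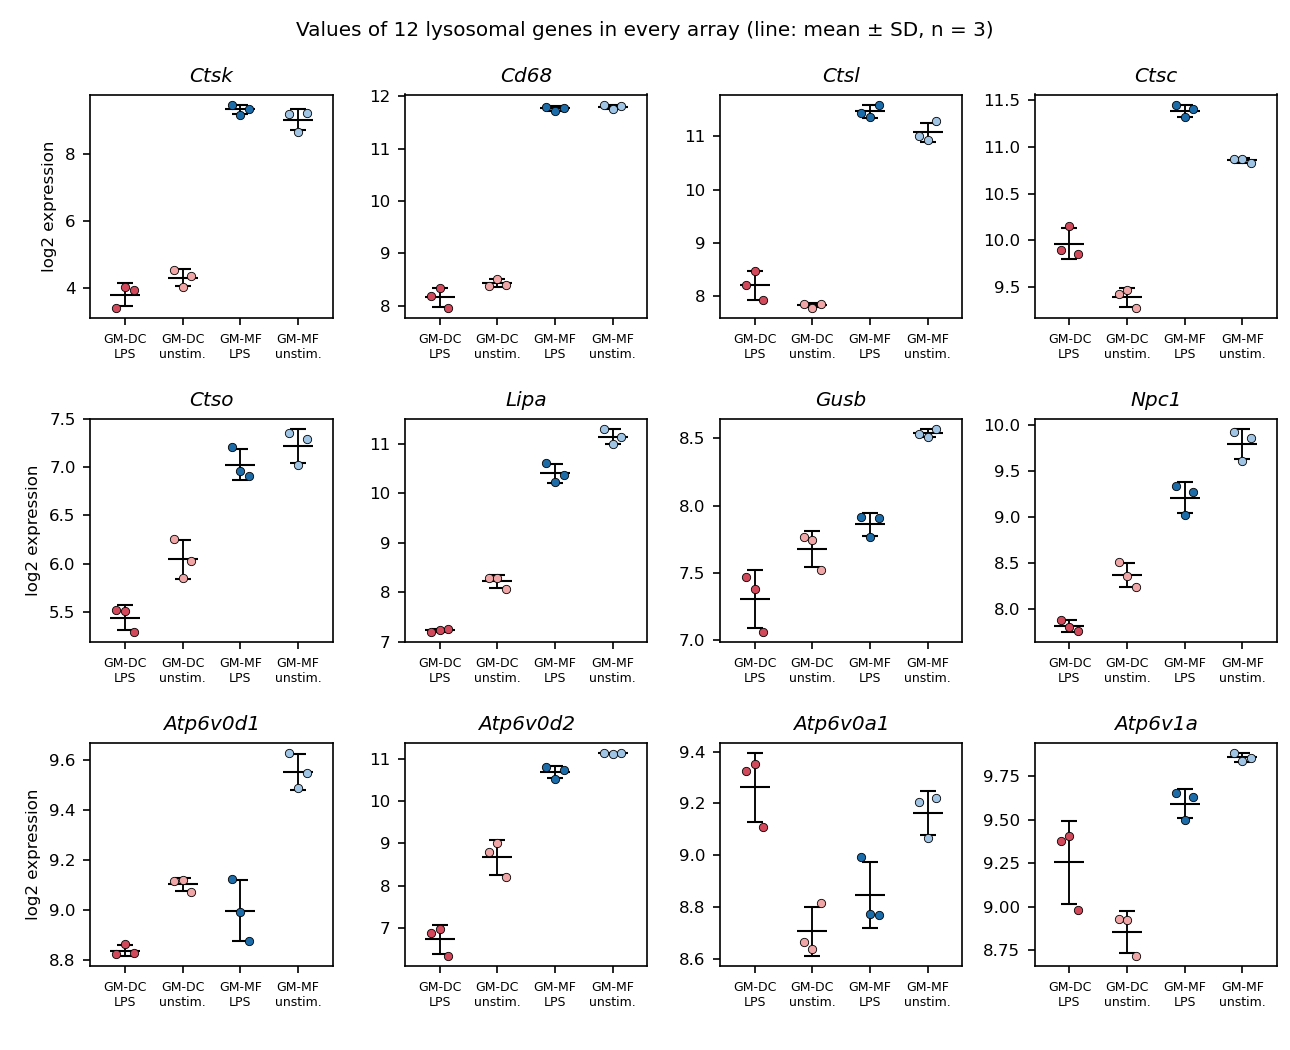
Log2 expression of 12 lysosomal genes in each array, with the group mean and SD of 3 arrays; each panel has its own axis. Ctsk, Cd68, Ctsl, Lipa and Atp6v0d2 show GM-DC arrays far below GM-MF arrays, and Atp6v0a1 shows the GM-DC arrays with LPS at 9.11 to 9.35, above those without at 8.64 to 8.82.

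All 8 proton pump genes were lower in unstimulated GM-DC, 4 of them by at least 2-fold, with a median of -0.90 log2. With LPS 6 were lower, 1 was higher and 1 did not pass, with a median of -0.50. Atp6v1h, a regulatory V1 subunit, was lower in GM-DC by -1.49 ± 0.15 in both comparisons, and the accessory subunit Atp6ap1 by -1.03 with LPS and -1.27 without. The V1 subunits Atp6v1b2 (-0.58 and -0.79) and Atp6v1d (-0.42 and -0.75) were lower by less. The other 4, Atp6v0d1, Atp6v0d2, Atp6v0a1 and Atp6v1a, are described with the LPS responses.

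The responses to LPS were tested within each cell type. In GM-DC 3 lysosomal genes rose (Ctsc, Atp6v0a1 and Atp6v1a) and 8 fell, against 5.23% of all genes higher and 4.49% lower, 9.72% in all, and 9.53% and 8.32% of the brighter genes. The genes that fell were Atp6v0d2, Lipa, Ctso, Npc1, Psap, Hexa, Tpp1 and Gla. Atp6v0d2 was the single one that fell by at least 2-fold, against 0.431% of all genes, and the median of the 45 was -0.18 log2, beside -0.01 over all genes. At an unadjusted p under 0.05 there were 21 genes (46.7%), against 19.5% of all genes. Arrays with LPS lay above all those without for 4 genes, against 11.1% of all genes, and below them for 18, against 13.1%. The labels give no pairing of LPS and unstimulated arrays. A pairing by replicate number within each cell type was assumed from the values themselves, and it is unclear for GM-DC replicates 1 and 2. With this assumed pairing as a block 3 rose and 11 fell, Gusb, Man2b1 and Asah1 being added. In that fit 5.94% of all genes were higher and 5.87% lower, 11.8% in all.

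The count of 8 fell to 4 without replicate 1 or replicate 2 of unstimulated GM-DC or replicate 3 of GM-DC with LPS, and to 5 without replicate 3 of unstimulated GM-MF or replicate 3 of GM-DC in both treatments. Hexa (adjusted p = 0.0495), Gla (0.0466) and Tpp1 (0.0361) lay near the threshold and lost their call in 13, 15 and 8 of 22 alternative settings. For Psap (-0.54 ± 0.13, adjusted p = 0.0127) the call was lost in 4 of the 22, and for Ctso in 1 of the 22. Leaving out replicate 2 of GM-MF in both treatments gave 2 higher and 7 lower.

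In GM-MF 1 lysosomal gene rose (Ctsc) and 6 fell (Lipa, Gusb, Npc1, Atp6v0d1, Neu1 and Atp6v1b2), against 6.54% of all genes higher and 10.8% lower, 17.4% in all, and 11.2% and 19.7% of the brighter genes. The 6 of 45, or 13.3%, are near the share over all genes. Arrays did not overlap for 2 higher genes, against 12.3% of all genes, and for 24 lower genes, against 19.1%. The median was -0.17 log2, beside -0.02 over all genes, and 15 genes (33.3%) had an unadjusted p under 0.05, near the 26.9% of all genes. With the assumed pairing as a block 2 rose and 8 fell, against 7.63% of all genes higher and 12.3% lower in that fit. Ctsl (adjusted p = 0.0426), Atp6v0d2 (0.00723) and Atp6ap1 (0.0443) were added. The count of higher genes was 2, with Ctsl, without replicate 3 of unstimulated GM-MF, without replicate 2 or 3 of GM-DC with LPS, or without replicate 3 of GM-DC in both treatments. Leaving out replicate 2 of GM-MF in both treatments gave 1 higher and 5 lower, without Atp6v1b2 (adjusted p = 0.084). Without replicate 3 of GM-DC in both treatments, Atp6v0d2 (adjusted p = 0.00959), Atp6v0a1 (0.0385) and Atp6ap1 (0.0391) were added to the lower genes.

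**Figure D4:**
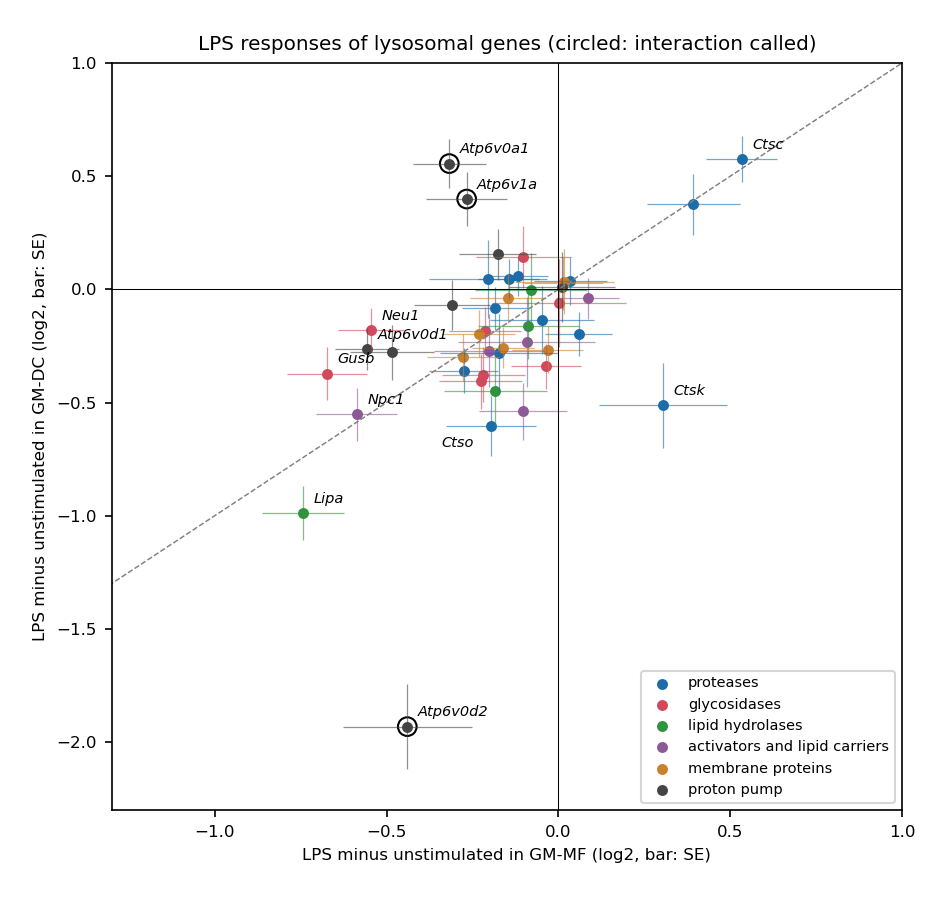
LPS response of each lysosomal gene in GM-DC (vertical axis) against that in GM-MF (horizontal axis), both LPS minus unstimulated on the log2 scale with standard errors; the dashed line marks equal responses and circles mark a called difference of responses. Lipa lies low on both axes, Ctsc high on both, and the circled Atp6v0d2, Atp6v0a1 and Atp6v1a lie off the dashed line.

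Ctsc rose in both cell types, against 2.2% of all genes. It stood at 9.89, 10.15 and 9.85 log2 in GM-DC with LPS, against 9.43, 9.47 and 9.28 in unstimulated GM-DC. GM-MF arrays stood at 11.44, 11.32 and 11.40 with LPS, against 10.87, 10.87 and 10.82 without. Neither pair of groups overlapped, and the responses were 0.58 ± 0.10 in GM-DC (1.49-fold, adjusted p = 0.00172) and 0.53 ± 0.10 in GM-MF (1.45-fold, adjusted p = 0.00172). Their difference was 0.04 (95% interval -0.27 to 0.35, adjusted p = 0.94). Ctsl, by 0.38 in GM-DC (adjusted p = 0.11) and 0.39 in GM-MF (adjusted p = 0.0622), did not pass in the fit without the block.

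Lipa and Npc1, which act in turn on lysosomal cholesterol, fell in both cell types, against 2.35% of all genes. From the values given above, Lipa fell by 0.99 ± 0.12 log2 in GM-DC (1.98-fold, adjusted p = 6.32e-05) and by 0.74 ± 0.12 in GM-MF (1.67-fold, adjusted p = 0.00042), with no overlap in either. Npc1 stood at 7.89, 7.81 and 7.76 log2 in GM-DC with LPS, against 8.51, 8.36 and 8.25 in unstimulated GM-DC. Values in GM-MF were 9.34, 9.02 and 9.28 with LPS, against 9.92, 9.61 and 9.86 without. All arrays with LPS were below those without, and Npc1 fell by 0.55 ± 0.12 in GM-DC (adjusted p = 0.00641) and by 0.59 ± 0.12 in GM-MF (adjusted p = 0.00237). The differences of responses were -0.25 for Lipa (adjusted p = 0.53) and 0.03 for Npc1 (adjusted p = 0.962). Npc2, the partner of Npc1, did not pass in either cell type (-0.04 in GM-DC, adjusted p = 0.9, and 0.08 in GM-MF, adjusted p = 0.639).

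Some calls were made in 1 cell type without a called difference between the types. Ctso stood at 5.52, 5.50 and 5.29 log2 in GM-DC with LPS, against 6.25, 5.85 and 6.02 in unstimulated GM-DC, a non-overlapping fall of 0.60 ± 0.13 (1.52-fold, adjusted p = 0.00743). GM-MF arrays gave 7.20, 6.96 and 6.91 with LPS, against 7.35, 7.02 and 7.29 without, groups that overlapped (-0.20, adjusted p = 0.395). The difference of responses, -0.41, did not pass (adjusted p = 0.254), and the GM-DC call was lost without replicate 3 of GM-DC in both treatments (adjusted p = 0.0604). Gusb stood at 7.92, 7.76 and 7.91 log2 in GM-MF with LPS, against 8.53, 8.51 and 8.57 in unstimulated GM-MF, and fell by 0.67 ± 0.12 (1.6-fold, adjusted p = 0.000721). In GM-DC Gusb stood at 7.47, 7.39 and 7.06 with LPS, against 7.77, 7.75 and 7.52 without (-0.37, adjusted p = 0.0591), and the difference of responses, 0.30, did not pass (adjusted p = 0.372). Neu1 gave -0.54 ± 0.10 in GM-MF (adjusted p = 0.000902), -0.18 in GM-DC (adjusted p = 0.349) and a difference of 0.36 (adjusted p = 0.141).

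The difference of LPS responses, GM-DC minus GM-MF, was called for 3 of the 45, 2 higher and 1 lower, against 4.53% of all genes higher and 3.06% lower, 7.59% in all, and 8.31% and 5.19% of the brighter genes. The count of 3 is not above the share over all genes. The 3 were the proton pump genes Atp6v0d2, Atp6v0a1 and Atp6v1a. With the assumed pairing as a block Psap, the saposin precursor, was called lower too (-0.44, adjusted p = 0.0495), against 9.73% of all genes called in that fit. The median over the 45 was -0.00 log2, beside 0.02 over all genes, and 8 genes (17.8%) had an unadjusted p under 0.05, against 18.4% of all genes.

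Atp6v0d2 is a d subunit of the V0 sector described in mouse osteoclasts and macrophages. It stood at 6.88, 6.98 and 6.34 log2 in GM-DC with LPS, against 8.79, 9.001 and 8.21 in unstimulated GM-DC. In GM-MF it stood at 10.79, 10.52 and 10.73 with LPS, against 11.13, 11.10 and 11.13 without. The 4 groups were separate, GM-DC with LPS lowest and unstimulated GM-MF highest. It fell by 1.93 ± 0.19 in GM-DC (3.81-fold, adjusted p = 7.17e-06), while the response in GM-MF was -0.44 ± 0.19 (adjusted p = 0.143). Among the alternatives the GM-MF fall passed with only the arrays compared (adjusted p = 0.0190) and without replicate 3 of GM-DC in both treatments (0.00959). It also passed with the assumed pairing as a block (0.00723). The difference of responses was -1.49 ± 0.27 (2.81-fold, adjusted p = 0.00236) and the cell types differed by -3.95 ± 0.19 with LPS (15.4-fold, adjusted p = 2.58e-10) and by -2.45 ± 0.19 without (5.48-fold, adjusted p = 4.88e-08).

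Its paralogue Atp6v0d1 encodes the widely expressed d subunit. It stood at 8.82, 8.86 and 8.83 log2 in GM-DC with LPS, against 9.11, 9.12 and 9.07 in unstimulated GM-DC. Values of Atp6v0d1 in GM-MF were 9.12, 8.99 and 8.88 with LPS, against 9.63, 9.49 and 9.55 without. Arrays with LPS lay below those without in each cell type, and the fall passed in GM-MF (0.56 ± 0.09 lower, 1.47-fold, adjusted p = 0.000575) and not in GM-DC (-0.27, adjusted p = 0.1). The difference of responses, 0.29, did not pass (adjusted p = 0.249). Between the cell types Atp6v0d1 differed by -0.16 ± 0.09 with LPS (95% interval -0.36 to 0.04, adjusted p = 0.223) and -0.45 ± 0.09 without (adjusted p = 0.00114). After scaling by cyclic loess the difference with LPS was -0.265 and passed (adjusted p = 0.0208).

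Atp6v0a1, an a subunit of the proton-carrying V0 sector, stood at 9.33, 9.35 and 9.11 log2 in GM-DC with LPS, against 8.67, 8.64 and 8.82 in unstimulated GM-DC. In the GM-MF arrays Atp6v0a1 stood at 8.99, 8.77 and 8.77 with LPS, against 9.20, 9.07 and 9.22 without. Every array with LPS was above the unstimulated arrays in GM-DC and below them in GM-MF. It rose by 0.56 ± 0.11 in GM-DC (1.47-fold, adjusted p = 0.00309), the GM-MF response was -0.32 ± 0.11 (adjusted p = 0.0546), and the difference of responses was 0.87 ± 0.15 (1.83-fold, adjusted p = 0.00182). GM-DC was lower than GM-MF without LPS (-0.46 ± 0.11, adjusted p = 0.00304) and higher with it (0.42 ± 0.11, adjusted p = 0.00559). Naglu lies next to Atp6v0a1 on chromosome 11, with 0 protein-coding genes between them in RefSeq, and its LPS responses were -0.06 in GM-DC and 0.00 in GM-MF.

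Atp6v1a, the catalytic V1 subunit that hydrolyses ATP, stood at 9.38, 9.41 and 8.98 log2 in GM-DC with LPS, against 8.93, 8.92 and 8.72 in unstimulated GM-DC. The GM-MF values were 9.65, 9.50 and 9.63 with LPS, against 9.89, 9.84 and 9.85 without. The GM-DC arrays with LPS lay above those without, and the GM-MF arrays with LPS below those without. The responses were 0.40 ± 0.12 in GM-DC (1.32-fold, adjusted p = 0.0464) and -0.27 ± 0.12 in GM-MF (adjusted p = 0.159), and their difference was 0.67 ± 0.17 (1.59-fold, adjusted p = 0.0228). The GM-DC call was lost in 14 of 22 alternative settings and the difference of responses in 8 of 21. Leaving out 1 array took the adjusted p of that difference past 0.05 for replicate 3 of unstimulated GM-DC (0.0566), replicates 1 and 2 of GM-DC with LPS (0.0665 and 0.0643), replicates 1 and 3 of unstimulated GM-MF (0.0533 and 0.0504) and replicate 2 of GM-MF with LPS (0.0588). With the assumed pairing as a block it was 0.00917. Between the cell types Atp6v1a was lower in GM-DC by -0.34 ± 0.12 with LPS (adjusted p = 0.0358, and 0.177 without replicate 3 of GM-DC, 0.104 without replicate 1 and 0.0954 without replicate 3 of GM-MF) and by -1.004 ± 0.12 without LPS (2.01-fold, adjusted p = 5.4e-06).

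The other 14 measured subunits of the pump gave values for comparison. Without LPS 6 of the 14 were lower in GM-DC and 0 higher, against 16.2% and 18% of all genes. With LPS 5 were lower and 3 higher, against 15.4% and 20.9% of all genes. Of these, Tcirg1, the a subunit of osteoclast and macrophage lysosomes, was lower in GM-DC by -1.87 ± 0.13 with LPS and -2.38 ± 0.13 without. In response to LPS 0 of the 14 were called in GM-DC, while Atp6v0a2 (-0.81 ± 0.13) and Atp6v1c1 (-0.43 ± 0.12) fell in GM-MF, where 10.8% of all genes were lower. Atp6v0a2, another a subunit, had a called difference of responses of 0.83 ± 0.18 (adjusted p = 0.0101), with 7.26, 7.50 and 6.97 log2 in GM-DC with LPS, against 7.31, 7.30 and 7.08 in unstimulated GM-DC. GM-MF held 7.49, 7.55 and 7.41 with LPS, against 8.27, 8.43 and 8.19 without.

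**Figure D5:**
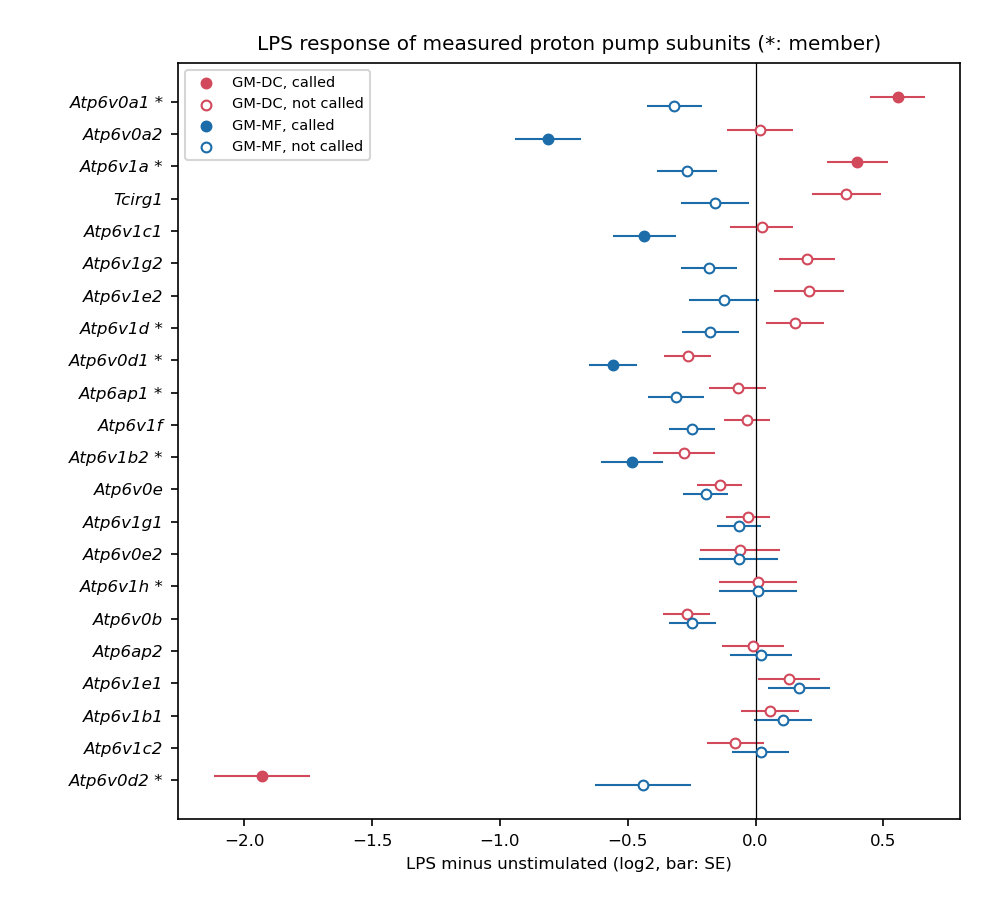
LPS response of 22 measured proton pump subunits on the log2 scale with standard errors, GM-DC in red above GM-MF in blue, with filled points for responses that passed an adjusted p under 0.05 and stars for the 8 pump genes of the main list. Atp6v0a1 and Atp6v1a rose in GM-DC, and Atp6v0d2 fell in GM-DC by 1.93.

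Other genes of the lysosomal pathway were read from 6 further lists, of which 88 of 96 entries were measured. Without LPS 55 were lower and 10 higher in GM-DC (62.5% and 11.4%), with a median of -0.60 log2. With LPS 48 were lower and 14 higher (54.5% and 15.9%), with a median of -0.51. Over all genes 16.2% were lower and 18% higher without LPS, and 15.4% and 20.9% with LPS. The same shares apply to the single lists below. In response to LPS 12 fell and 6 rose in GM-DC and 27 fell and 5 rose in GM-MF, and the difference of responses was called higher for 9 and lower for 4. As shares of the 88, these were 13.6% lower and 6.82% higher in GM-DC, against 4.49% and 5.23% of all genes, and 30.7% lower and 5.68% higher in GM-MF, against 10.8% and 6.54%. For the difference of responses they were 10.2% higher and 4.55% lower, against 4.53% and 3.06%. Among 20 further hydrolases, 13 were lower and 4 higher with LPS, and 14 were lower and 2 higher without. Acp5, the tartrate-resistant phosphatase of osteoclasts and macrophages, was among the lower ones, at -3.68 ± 0.20 with LPS and -2.36 ± 0.20 without. Among 19 further membrane proteins, 12 were lower with LPS and 14 without, including the channel Mcoln2 (-4.96 ± 0.19 and -4.87 ± 0.19) and the chloride transporter Clcn7 (-2.54 ± 0.17 and -2.36 ± 0.17), while Laptm4b was higher (1.82 ± 0.20 and 2.25 ± 0.20). Of 11 genes that sort enzymes to lysosomes 6 were lower and 2 higher in both comparisons. Among 8 cathepsin inhibitors 3 were lower in both comparisons, and 2 were higher with LPS and 3 without. Cst7 (cystatin F) differed by -4.17 ± 0.15 and -2.97 ± 0.15, and Serpinb6b, a serine protease inhibitor, by 4.68 ± 0.22 and 5.90 ± 0.22.

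The transcription factors that bind CACGTG and the complexes that hold them at the lysosome made up 16 genes. In GM-DC 9 of them were lower with LPS and 12 without, against 15.4% and 16.2% of all genes. In each comparison 2 were higher, against 20.9% of all genes with LPS and 18% without. Tfec stood at 7.31, 7.69 and 7.17 log2 in GM-DC with LPS, against 10.15, 9.83 and 10.08 in GM-MF with LPS, and differed by -2.63 ± 0.13 (adjusted p = 4.76e-10). Without LPS Tfec stood at 6.46, 6.52 and 6.24 in GM-DC, against 9.99, 9.99 and 9.95 in GM-MF (-3.57 ± 0.13). Mitf differed by -2.69 ± 0.12 with LPS and -2.75 ± 0.12 without. Tfeb differed by 0.07 ± 0.10 with LPS (adjusted p = 0.662) and -0.82 ± 0.10 without, and Tfe3 by 0.17 ± 0.12 (adjusted p = 0.307) and -0.95 ± 0.12.

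In response to LPS 7 of these 16 fell in GM-MF and 0 rose, and in GM-DC 1 fell and 2 rose, against 10.8% of all genes lower in GM-MF, and 4.49% lower and 5.23% higher in GM-DC. Tfeb fell by 1.21 ± 0.10 in GM-MF (adjusted p = 1.06e-06), with -0.32 ± 0.10 in GM-DC (adjusted p = 0.0656). Tfe3 fell by 0.80 ± 0.12 in GM-MF (adjusted p = 0.000197), with 0.32 ± 0.12 in GM-DC (adjusted p = 0.114). The differences of responses passed for both, at 0.89 ± 0.14 and 1.12 ± 0.17, as for Flcn, which regulates their docking (1.11 ± 0.15). Of the 16 in all, 5 were called higher and 0 lower, against 4.53% and 3.06% of all genes.

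The lysosomal genes were also read by whether their window holds CACGTG, as a description. Without LPS 12 of the 13 with it and 24 of the 25 without it were lower in GM-DC, with medians of -1.004 and -1.18 log2. With LPS 11 of 13 and 23 of 25 were lower, with medians of -0.82 and -1.03. The medians of the LPS response were -0.18 and -0.18 in GM-DC and -0.17 and -0.15 in GM-MF. Genes with large differences were found on both sides. The motif was absent from the windows of Lipa, Cd68, Ctsk and Atp6v0a1, and present for Ctsl, Ctsa, Gla and Ctsd.

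Ordered by the group means, 26 of the 45 were highest in unstimulated GM-MF, followed by GM-MF with LPS, unstimulated GM-DC and GM-DC with LPS. A further 6 had GM-MF with LPS first and unstimulated GM-DC last, 6 had unstimulated GM-MF first and unstimulated GM-DC last with both GM-MF groups on top, and 4 had GM-MF with LPS first and GM-DC with LPS last. The remaining 3 each had an order of their own: Atp6v0a1, Scarb2 and Atp6v0d1. The orders were not counted over all genes and describe these genes only. Neighbours in these orders that belong to the same cell type differed beyond the test's threshold for 10 of 43 genes in GM-DC and 6 of 43 in GM-MF. These are LPS calls already given above and no further result. Over all genes 9.72% were called for LPS in GM-DC and 17.4% in GM-MF.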

How the data were processed

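The deposited table holds log2 values that the authors made by RMA (R 3.0.2, as the submitters' processing notes list it); the settings, and the base of the logarithm, taken as 2 from the range of 1.18 to 13.66, are not given in the sources used here. The values were used as deposited. Raw scanner files were not used, so no background call was made, and 3 arrays per group limit the precision. Of 35556 probe sets, 21789 had 1 gene symbol, 1621 several and 12146 none, and 999 genes had several probe sets. Differences were tested with limma 3.58.1 in R 4.3.3 (lmFit with 4 group means on 12 arrays, contrasts.fit, eBayes without trend, 8 residual degrees of freedom), two-sided, with Benjamini-Hochberg adjustment over 19938 genes, a call at 0.05 and a second count at 2-fold. The fit was tested on simulated data.

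The genes, roles and lists were chosen with earlier results of these data known. Values in every array are printed for the 3 called genes with the largest difference per direction and comparison, for Atp6v0d1 and Atp6v0d2, and for genes with a called interaction; other genes shown by array (Gaa, Scarb2, Atp6v0a2, Tfec) were chosen after their values were seen. From the further lists, some genes with the largest differences were named, but none that sort enzymes to lysosomes and none of the further hydrolases higher in GM-DC. Mitf, Tfeb, Tfe3, Tcirg1, Atp6v1c1, Flcn and Clcn7 were named where they bear on a result.

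After centring on group means, each LPS array correlated with the unstimulated array of its own number at 0.119 to 0.363 (GM-DC) and 0.104 to 0.257 (GM-MF). Arrays of unlike number gave -0.250 to 0.164 in GM-DC and -0.216 to 0.0254 in GM-MF. In GM-DC, LPS replicate 1 correlated more with unstimulated replicate 2 (0.164) than with its own number (0.119). The labels give no pairing, so the pairing by number is an assumption drawn from these values, and it is unclear for GM-DC replicates 1 and 2. Between cell types arrays of the same number and treatment gave -0.168 to 0.156. Arrays of unlike treatment gave -0.214 to 0.233, and no pairing was taken between cell types. No 2 arrays held identical values. Alternatives were the mean of probe sets, median centring, cyclic loess, bright genes only, eBayes with trend, the replicate block, only the arrays compared, and each array left out.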

Additional observations from a re-analysis of the deposited data

Results flagged for a closer look

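The LPS responses of GM-DC and GM-MF differed by a test of the difference itself for 3 of the 45 genes, all of them proton pump genes, a count not above the 7.59% of all genes so called. The response of GM-DC minus that of GM-MF was -1.49 log2 for Atp6v0d2 (3.81-fold lower with LPS in GM-DC), 0.87 for Atp6v0a1, and 0.67 for Atp6v1a. The responses of Atp6v0a1 and Atp6v1a were positive in GM-DC and negative in GM-MF, and that of Atp6v0d2 was negative in both. Replicate 3 of each GM-DC group was the lowest of its group for Atp6v0d2 and Atp6v1a, and without replicate 3 of GM-DC in both treatments all 3 differences passed. Without replicate 2 of GM-MF in both treatments that of Atp6v1a did not pass (adjusted p = 0.0798).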

How the results depend on the processing

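No direction of a called gene turned under any alternative. Of the values of single genes, 935 of 945 kept their call for GM-DC against GM-MF without LPS, 933 of 945 with LPS, 911 of 990 for LPS in GM-DC, 961 of 990 for LPS in GM-MF and 935 of 945 for the difference of responses. Part of these was kept by design. The mean of probe sets left the values of these genes as they were, since each had 1 probe set. Leaving out an array of a group not compared changed only the shared spread and the adjustment. Of the genes that fell with LPS in GM-DC, 8 in the main analysis, there were 5 after median centring, 14 among bright genes only, 13 with a trend in eBayes, 4 with only the arrays compared and 5 without replicate 3 of GM-DC in both treatments (added after seeing the data), and 4 to 10 on leaving out each array. Genes higher with LPS in GM-MF, 1 in the main analysis, were 2 after cyclic loess, among bright genes and with a trend. They were also 2 with the replicate block within each cell type and without replicate 3 of GM-DC in both treatments (both added after seeing the data). On leaving out each array they were 1 to 2. Genes lower there, 6 in the main analysis, were 10 among bright genes, 10 with a trend and 6 to 8 on leaving out each array. Atp6v0d2, Atp6v0a1 and Atp6ap1 were added to them without replicate 3 of GM-DC in both treatments. For the difference of responses, 2 higher genes became 1 after median centring and without replicate 2 of GM-MF in both treatments (added after seeing the data), and 1 to 2 on leaving out each array, and 1 lower gene became 2 after cyclic loess (with Ctsk, adjusted p = 0.0455) and with the replicate block within each cell type (with Psap). The replicate block over all groups gave 3 higher and 7 lower for LPS in GM-DC, 1 and 7 in GM-MF, and 0 higher and 43 lower for GM-DC against GM-MF without LPS. The causes of these changes were not tested. Scaling moved the median of all genes by less than 0.1 log2, and values near the array median, as for Ctsk in GM-DC, carry no background call.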
